A study of Mus musculus with 24 samples.

Results

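Frontal cortex punches of mice differed widely in RNA of genes of striatal neurons. The 8 punches with most RNA of the striatal marker Ppp1r1b are compared here with the 8 with least. The punches were chosen by the normalised count of Ppp1r1b, which ranked all 24 libraries of the series; the 8 highest form the rich set, the 8 lowest the poor set, and the 8 between them the middle libraries, which belong to neither. All animals were wild-type male C57BL/6 mice that were 4 weeks old at the start, and each library is bulk RNA of a frozen punch labelled frontal cortex. Mice were injected intraperitoneally once a day for 28 days with either vehicle, sarcosine at 100 mg/kg, memantine at 20 mg/kg, or both drugs at those doses (the combination), and each of these 4 groups has 6 libraries. Sarcosine is N-methylglycine, a blocker of glycine transport, and memantine is a channel blocker of the NMDA receptor. The rich set holds 3 sarcosine, 2 memantine and 3 combination libraries and no vehicle library, and the poor set holds 2 libraries of every group. The sets are therefore not groups of the study: they were selected on a measured value, and a difference between them says how a gene went with Ppp1r1b, not what a drug did.

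Ppp1r1b encodes the dopamine- and cAMP-regulated phosphoprotein that, once phosphorylated by protein kinase A, inhibits protein phosphatase 1. It is abundant in the spiny projection neurons of the striatum, whose direct pathway carries the dopamine receptor Drd1 and whose indirect pathway carries Drd2 and the adenosine receptor Adora2a; some deep-layer cortical neurons express it too. The striatum lies beneath the frontal cortex, with the white matter of the corpus callosum between them, the septum and the lateral ventricle beside it, and the olfactory bulb in front of the cortex.

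Ppp1r1b itself ran from 7295 normalised counts in sarcosine replicate 1 down to 2532 in memantine replicate 2 within the rich set, and from 1154 in vehicle replicate 4 down to 759 in combination replicate 5 within the poor set. Just outside the sets stood vehicle replicate 3 with 2446 and memantine replicate 6 with 1192, so the sets have no gap to the middle libraries. These values made the sets and are given without a test. Recovered reads numbered 14842206 to 21844579 per library in the rich set and 12678114 to 19273283 in the poor set, and mitochondrial transcripts took 3.62 to 4.59% and 3.73 to 5.62% of them.

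**Figure D1:**
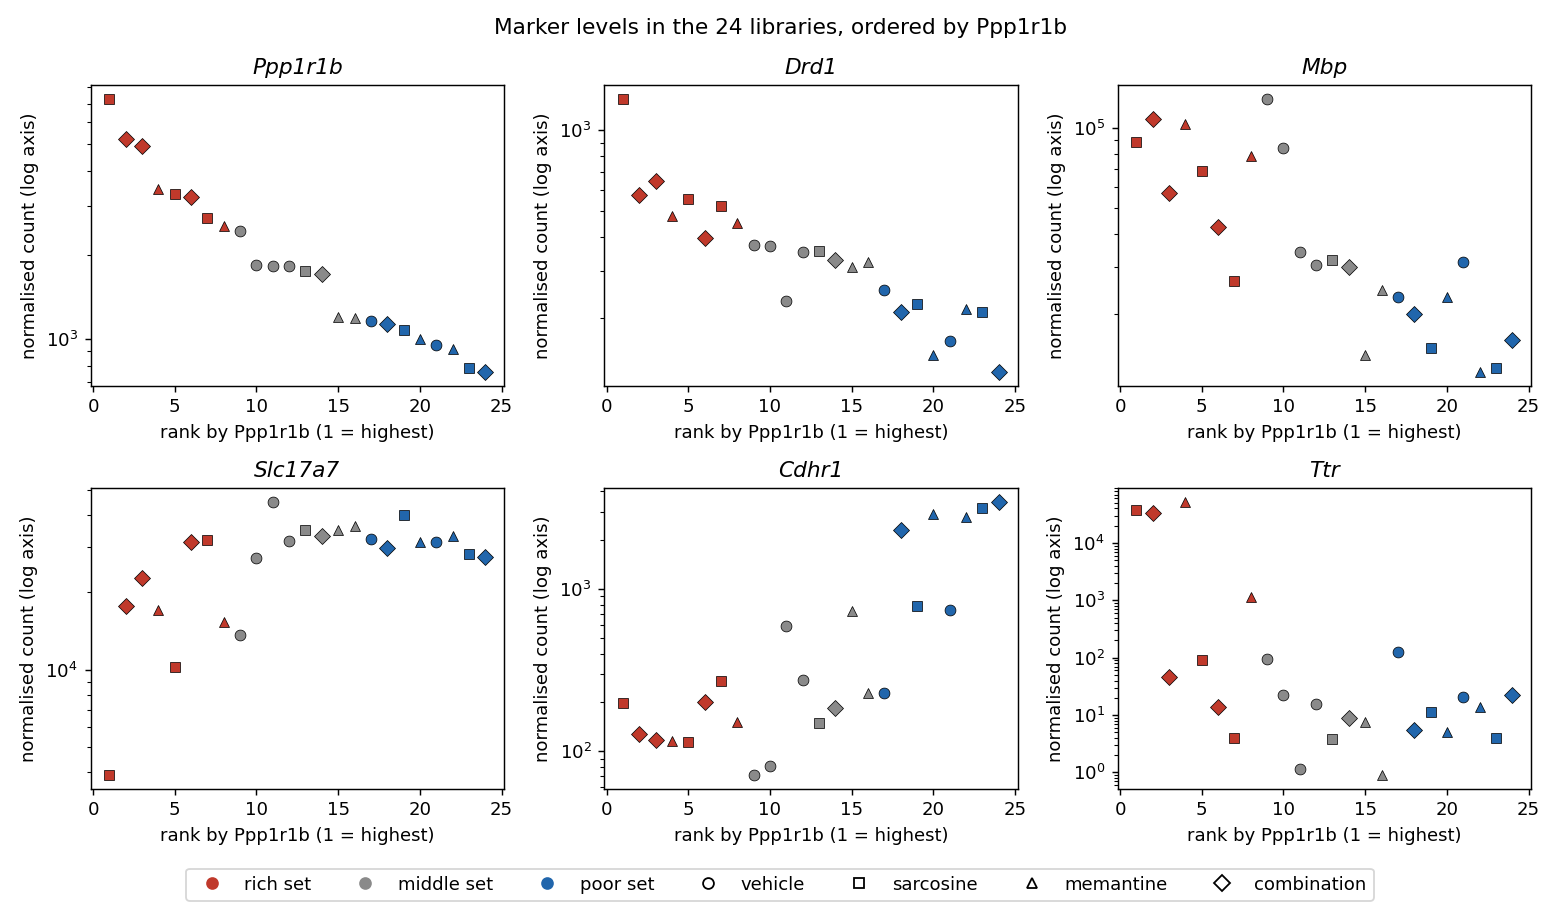
Normalised counts (log axes) of 6 marker genes in each of the 24 libraries, ordered by Ppp1r1b rank; colour gives the set and symbol shape the treatment. Drd1 fell along the ranking, Mbp was highest in vehicle replicate 3 of the middle libraries, Cdhr1 passed 2000 in 5 poor libraries, and Ttr passed 1000 in 4 rich libraries.

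Of 57180 genes in the table, 16577 reached a normalised count of 10 in at least 6 libraries and were tested, Ppp1r1b left out. Some genes near 0 passed this filter through only part of the libraries, which partly fixed their direction. Crocc2 (0 to 6.55) and Dnah12 (0 to 8.21) reached 10 in no poor library, and Ms4a15 (0 to 4.02) in no rich library. With limma on log2(normalised count + 1) and treatment as a covariate, 2482 genes were higher in the rich set (15% of those tested) and 2438 were lower (14.7%) at a Benjamini-Hochberg adjusted p under 0.05. All 8 rich libraries lay above all 8 poor ones for 467 genes (2.82%) and below them for 181 genes (1.09%). These shares are the background against which the gene lists below are read, and they depended on particular libraries: without the 4 libraries with Ttr above 1000, 900 genes were higher and 755 lower, and without the 5 libraries with Cdhr1 above 2000, 59 were higher and 1 was lower. In the second case the sarcosine libraries alone inform the difference; without the treatment covariate 685 genes were then higher and 307 lower. The summed level of all listed choroid plexus genes, tested or not, ran from 3668 to 78180 in the rich set and from 3827 to 5074 in the poor set. That of the olfactory bulb genes ran from 18250 to 25540 and from 21400 to 44550. The part of these tissues in the other differences was not tested.

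The 8 middle libraries were not used in the calls. Among them 93.8% of the genes called higher had a positive slope on Ppp1r1b and 89.2% of the genes called lower had a negative one, while 51% of all tested genes had a positive slope. These slopes have no treatment term and run along treatment, since the 4 middle libraries with more Ppp1r1b are all vehicle and the 4 with less are all drug-treated, so slope and treatment cannot be told apart over the 8. Taken separately, in an alternative added after seeing the data, the shares were 92.4% and 83.2% in the 4 vehicle libraries, where vehicle replicate 3 alone stands apart in Ppp1r1b, and 72.4% and 64.4% in the 4 drug-treated libraries. The share of positive slopes over all tested genes was 50.2% and 51.0%. Within treatment groups, the rich libraries differed from the poor ones in the same direction under sarcosine, memantine and the combination for 98.9% of the genes called higher and 99.2% of those called lower, against 55.5% of all tested genes. The within-group shares come from the libraries that made the calls and are a description; vehicle has no rich library and gives no value.

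Dopamine receptors and several other receptors of striatal projection neurons were higher in the rich set, and some receptors were lower. Drd1 ranged from 396 to 1313 normalised counts in the rich set (median 537) and from 126 to 253 in the poor set (median 211). Drd2 ranged from 349 to 1513 (median 698) against 21.7 to 93.4 (median 44.9). Neither gene overlapped between the sets, and sarcosine replicate 1 was highest for both. The log2 difference was 1.61 ± 0.21 (SE) for Drd1 and 4.13 ± 0.34 for Drd2 (limma, adjusted p = 6.7e-05 and 3.06e-06, higher in 8 of 8 rich libraries than in any poor one). Gpr6, an orphan receptor of indirect-pathway neurons, differed by 2.93 and Adora2a by 2.46. The muscarinic receptor Chrm4 fell by 0.51 and the opioid receptor Oprd1 by 1.22, while the cannabinoid receptor Cnr1 (-0.09) and the opioid receptor Oprm1 (-1.06) did not pass. In bulk tissue, fewer cells of a type and less RNA per cell cannot be told apart.

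Signalling proteins downstream of these receptors went the same way in part. Of 30 tested genes in the list of striatal signalling, 17 were higher and 5 lower, with a median log2 difference of 0.68 against -0.0038 over all tested genes. Rgs9, which speeds the shut-off of G proteins, differed by 1.95, the G protein subunit Gng7 by 1.21, the phosphodiesterase Pde10a by 1.29, the cyclase Adcy5 by 0.83 and the phosphatase Ptpn5 by 0.83. The calcium release channel Itpr1 fell by 0.71, the kinase Camk4 by 0.51, Arpp19 by 0.42 and Spred1 by 0.34. Chrm4 and Itpr1 are used by cortical neurons as well. The value of Arpp21 (-0.05) did not pass.

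Of 5 neuropeptide precursors 3 were higher and 1 was lower (median 0.97). Pdyn, the dynorphin precursor, ranged from 552 to 991 in the rich set and from 317 to 532 in the poor set, a log2 difference of 0.97 ± 0.09. Tac1, the precursor of substance P, differed by 1.31 ± 0.21, and neither gene overlapped. Penk, the enkephalin precursor of the indirect pathway, overlapped between the sets and differed by 1.00 ± 0.28 (adjusted p = 0.0157). Adcyap1, the precursor of the peptide PACAP, was lower in all 8 rich libraries, by 1.66 ± 0.30 on the log2 scale.

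Among 22 tested striatal transcription factors and retinoid genes, 9 were higher and 4 lower (median 0.19). Six3, a homeobox factor of indirect-pathway neurons, ranged from 171 to 1021 in the rich set and from 0 to 125 in the poor set and differed by 6.66 ± 0.67. Isl1, a factor of direct-pathway and cholinergic neurons, differed by 5.94 ± 0.61 with overlap between the sets. Reads of Six3 and its antisense neighbour Six3os1 (5.95) cannot be told apart here, since the sources used do not state strand-specific counting. Factors that cortical neurons share with the striatum showed smaller values: Foxp1 0.11 and Bcl11b 0.21, which did not pass, and Foxp2 0.67, which did. Tshz1, which is also on the olfactory bulb list, fell by 1.77.

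Of 33 channels, adhesion molecules and other striatal markers, 15 were higher and 8 lower (median 0.45). Lrrc10b differed by 3.98 ± 0.29, Sh3rf2 by 3.68 ± 0.40 and Ecel1 by 3.57 ± 0.39, none overlapping, and Dlk1 by 4.15 ± 0.39 with overlap. Genes of cholinergic neurons also rose: Chat, the enzyme that makes acetylcholine, differed by 3.08 and the choline transporter Slc5a7 by 2.65 ± 0.39. Of the 13 tested genes of that list, 8 were higher and 1 lower, and Lhx6 (0.02) and Nos1 (-0.51), genes of interneurons that the cortex also holds, did not pass. These cholinergic genes are shared by the striatum and the septum and do not separate them.

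Among the 10 genes whose log2 level was most like that of Ppp1r1b over the 24 libraries were Cd4, Rgs9, Prkch, Drd1, Nexn, Sh3rf2, Kazn, Rasd2 and Lrrc10b, with Pearson's r from 0.97 for Cd4 to 0.92 for Lrrc10b. Cd4, best known as a coreceptor of helper T cells, ranged from 67.8 to 353 in the rich set and from 14.1 to 33.5 in the poor set. The r values describe libraries that were ranked on the same gene and carry no test.

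**Figure D2:**
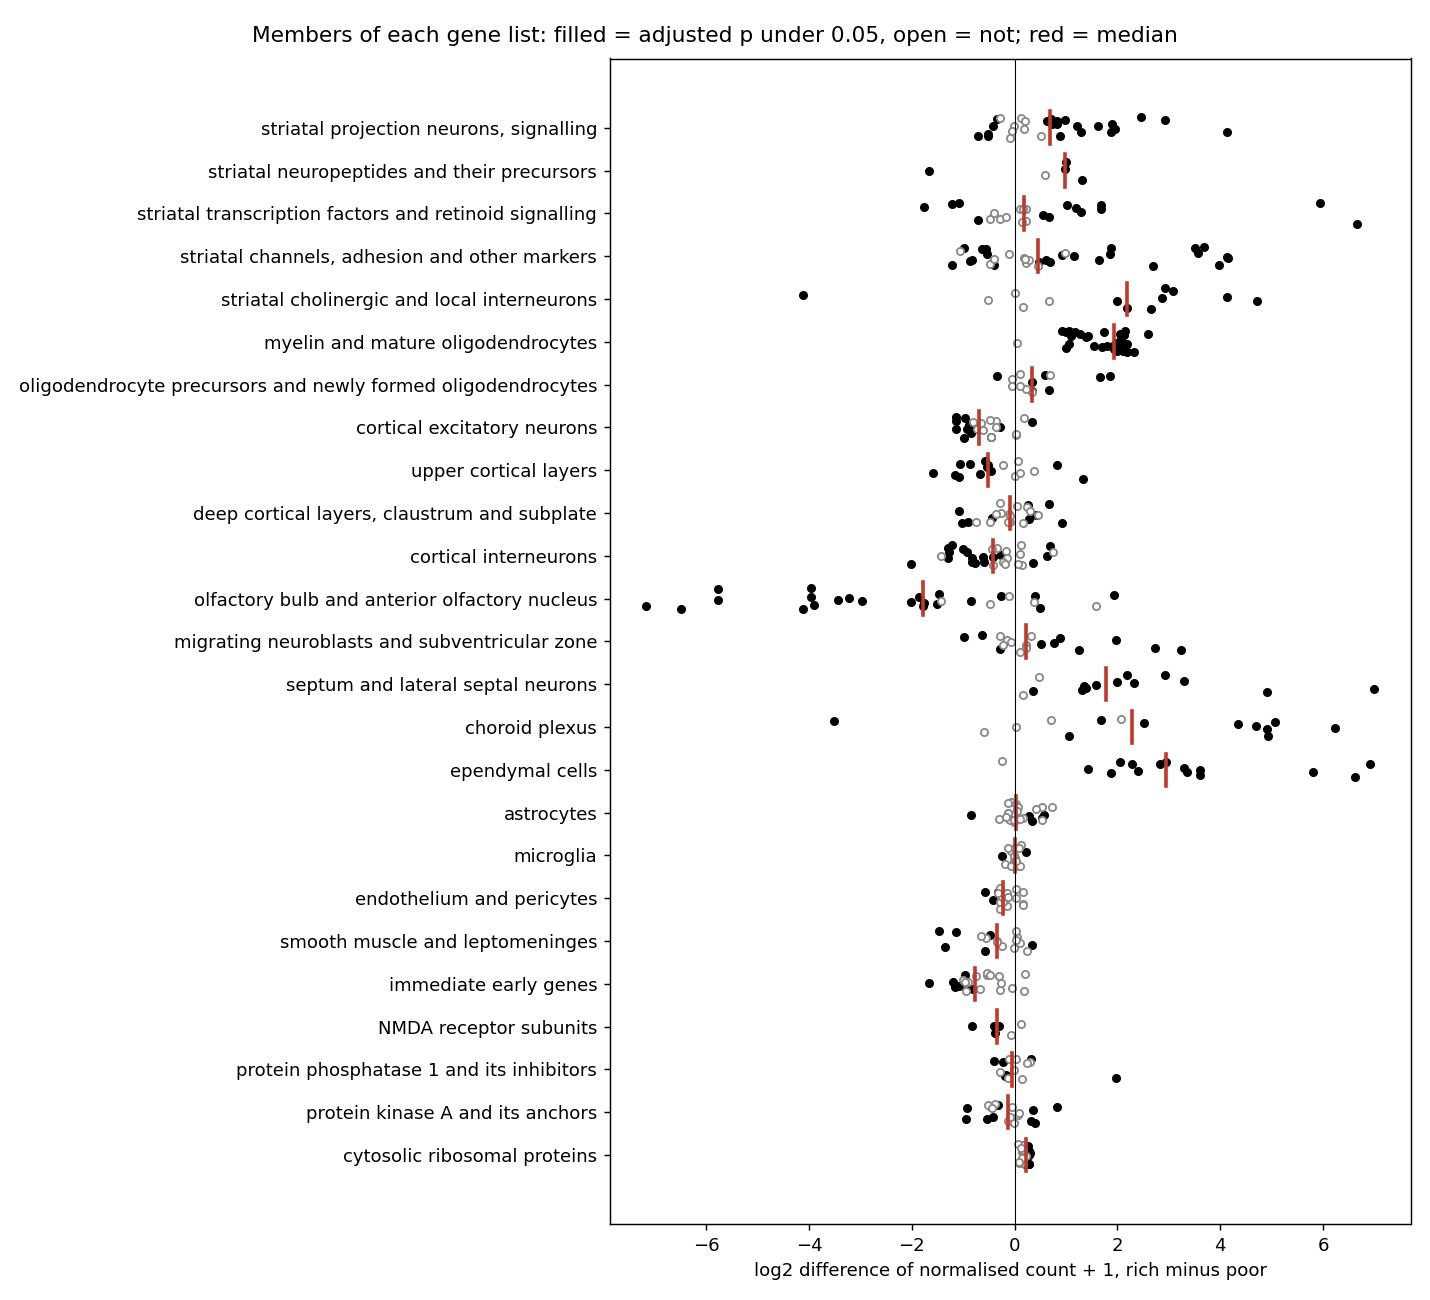
Log2 difference, rich minus poor, of every tested member of the 25 gene lists; filled points passed an adjusted p of 0.05, open points did not, and red bars are list medians. Myelin, ependymal and septal genes lie almost wholly to the right and olfactory bulb genes mostly to the left, while the striatal lists hold members on both sides.

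Myelin genes moved as a block. Of 33 tested genes of mature oligodendrocytes, 32 were higher and none lower, with a median log2 difference of 1.94; Apod (0.04) did not pass. Mbp, myelin basic protein, ranged from 26438 to 108156 in the rich set (median 73764) and from 12037 to 31190 in the poor set (median 17905). Sarcosine replicate 3 was the lowest rich library and lay under vehicle replicate 5, the highest poor one, so the sets overlapped for Mbp. Opalin, a membrane protein of myelinating cells, differed by 2.60 ± 0.29, the factor Myrf that switches on myelin genes by 2.01 ± 0.24, Mal by 2.12 ± 0.25 and Tspan2 by 1.94 ± 0.21, with no overlap. Of 14 genes of precursors and newly formed oligodendrocytes, 6 were higher and 1 lower (median 0.34), and the precursor proteoglycan Cspg4 differed by 0.35 ± 0.07.

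Mbp correlated with Ppp1r1b at r = 0.82 over the 24 libraries, and all 33 tested myelin genes had a positive slope on it among the middle libraries. The highest Mbp of the series, 128952, was in vehicle replicate 3 and the next highest middle value, 84085, in vehicle replicate 6, the first above all 8 rich libraries and the second above 5 of them; these libraries rank 9 and 10 by Ppp1r1b, at the top of the middle ones. When log2 Mbp was added as a covariate, 50 genes were higher and 37 lower, the differences of Drd1 (1.09) and Drd2 (3.10) no longer passed (limma, adjusted p = 0.285 and 0.0637), and those of Ccdc153 (4.99) and Prdm12 (4.3) did.

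The list with the highest median was that of ependymal cells, which line the ventricles. Of 15 tested ependymal genes 14 were higher and none lower, 11 without overlap, with a median of 2.95; the dynein gene Dnah11 (-0.24) did not pass, and Mia was below the filter. Ccdc153, a gene of ciliated cells, ranged from 81.2 to 655 in the rich set and from 0 to 19.7 in the poor set. Tmem212 ranged from 40.2 to 281 against 0 to 12.3, and Ak7, an adenylate kinase of cilia, from 71.8 to 478 against 0.946 to 24.6. In 6 of the 8 poor libraries Ccdc153 was under 5 normalised counts, and no rich library was under 80. The log2 differences were 6.91 ± 0.42, 6.62 ± 0.42 and 5.80 ± 0.38 (adjusted p = 4.78e-07 for each). Foxj1, the factor that directs the building of motile cilia, differed by 2.82. Differences of genes this low in the poor set depend on the 1 added before taking logs. Such genes pass the filter mainly through the other libraries, so the counts of this list are not independent of the filter.

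Genes of motile cilia are known to carry the X-box, the site of RFX factors, near their start, and the promoters of the ependymal genes were searched for it. RefSeq promoters (GRCm38.p6, 250 bases before to 50 after the start) matched 12 of the 16 listed genes. The short form GTTGCCNNG, on either strand, was in 5 of these 12 and in 5.74% of all 27025 genes with a promoter; among genes tested it was in 9.82% of those called higher and 5.95% of those called lower, and in 6.78% of all. It was the second of 5 forms searched, and was picked for display after all had been seen. A form of 14 letters with both arms of the site was in 1 of the 12 (0.529% of all genes). GTTGCCATG was in 0 (0.877%), a form of 10 letters in 0 (1.33%) and CNNGGNAAC in 6 (18.8%). Read on the opposite strand, CNNGGNAAC is the short form with 1 base left open. Every match of the short form is therefore also a match of it, and its 6 genes include those 5. The matched windows of 30 bases are printed 5′ to 3′ on the gene's strand, with the match in capitals, because they belong to genes of the list with the largest median difference.
Ccdc153, chr9:44240515-44240544, plus strand: gagttttccaGTTGCCTGGacaacgtgcag
Dynlrb2, chr8:116504954-116504983, plus strand: ttcctgcctgGTTGCCTAGcaacgggggaa
Fam183b, chr11:58802008-58802037, minus strand: cctgggcgctGTTGCCTAGagacagaaagg
Fam183b, chr11:58801957-58801986, minus strand: aggaacatccGTTGCCTGGaaactgtagaa
Pifo, chr3:106001493-106001522, minus strand, match on the other strand: gttccgttccCTTGGCAACgtagtacacag
Spef2, chr15:9748841-9748870, minus strand: ttagcaactgGTTGCCCTGggcgacgggaa
A match is a stretch of letters and not a measured site; log2 differences of these genes were 6.91 for Ccdc153, 3.36 for Dynlrb2, 1.88 for Fam183b, 3.60 for Pifo and 2.95 for Spef2.

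**Figure D3:**
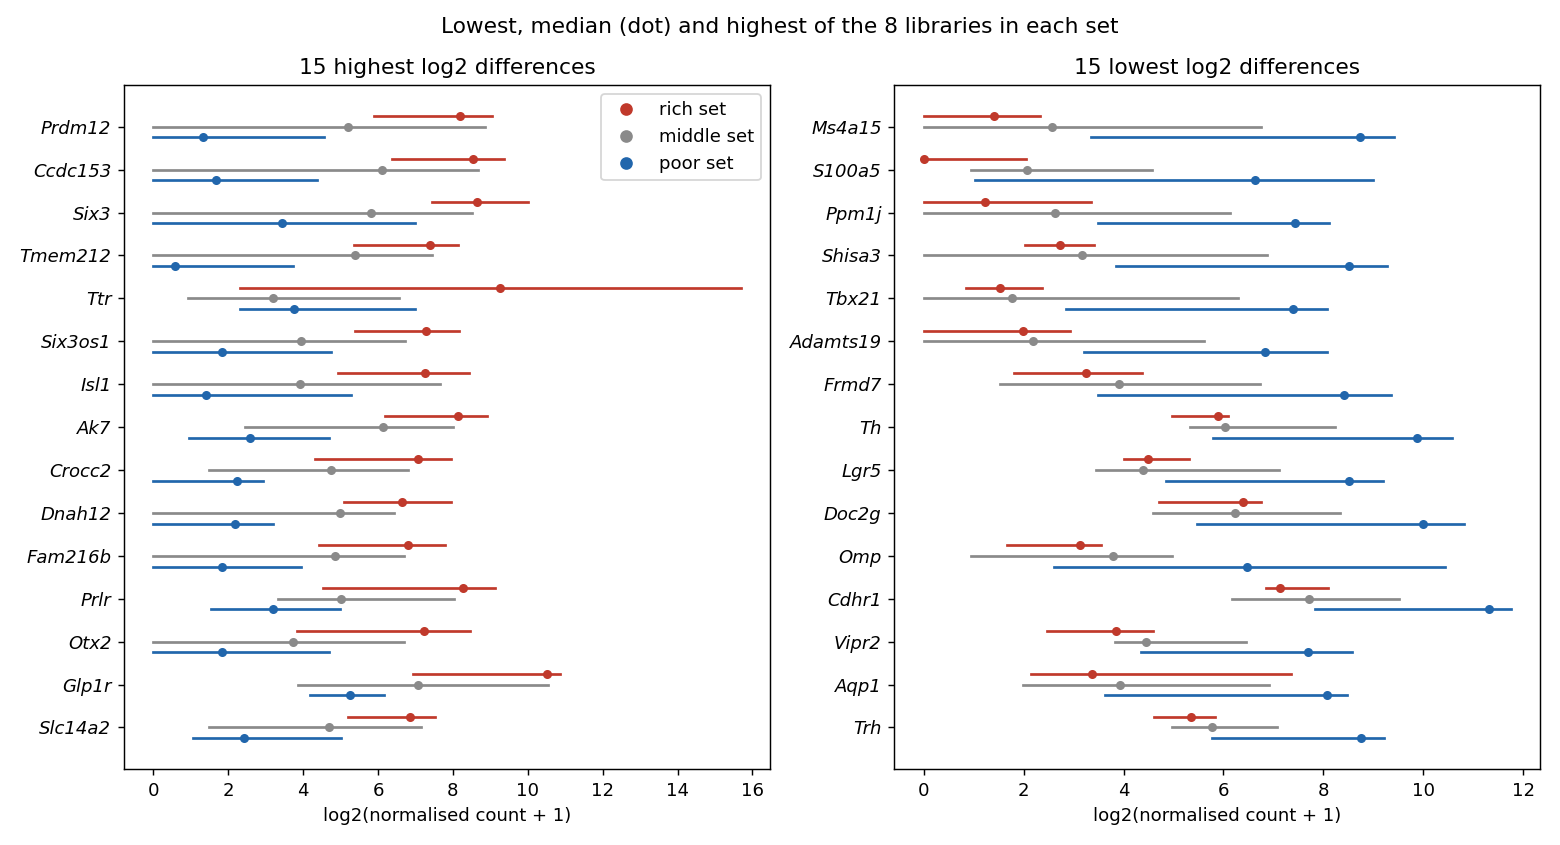
Lowest, median (dot) and highest log2(normalised count + 1) in the rich, middle and poor sets, 8 libraries each, for the 15 genes with the highest and the 15 with the lowest differences. Middle libraries span nearly the whole range for genes such as Prdm12 and Ccdc153, and sit near the rich set for the olfactory genes.

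Septal genes rose with them. Of 14 tested genes of the septum 12 were higher and none lower (median 1.78). Prdm12, a zinc finger factor, had the highest difference of all named genes, 6.99 ± 0.46, ranging from 58.4 to 532 in the rich set and from 0 to 22.6 in the poor set. Zic4, a factor of the medial septum, differed by 2.92 ± 0.40, the channel Trpc4 by 1.57 ± 0.22 and the neurotensin precursor Nts by 3.29 ± 0.48. Glp1r, the receptor of a gut and brainstem peptide, ranged from 121.5 to 1854 in the rich set and from 17.02 to 70.4 in the poor set. Zic1, Zic2 and Zic4 are on the cholinergic list too, and Otx2 is on the choroid plexus list.

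RNA of the choroid plexus gene Ttr was concentrated in a few rich libraries. Ttr, the thyroxine carrier that choroid plexus cells secrete, was 52720 in memantine replicate 3, 38155 in sarcosine replicate 1, 33153 in combination replicate 1 and 1131 in memantine replicate 2. In the other 4 rich libraries it was 3.94 to 90.1, inside the poor range of 3.95 to 126. Its log2 difference of 6.23 ± 1.97 passed (limma, adjusted p = 0.027), was lost on leaving out any of 5 single libraries (adjusted p 0.0509 to 0.0641), and was 1.27 without those 4 libraries (adjusted p = 0.391). Of 20 listed genes 14 were tested, and 9 were higher and 1 lower. These counts are not independent of the filter: Calml4, at 0 to 7.18 in the poor set, passed it only through other libraries. Calml4 (5.06 ± 0.57) did not overlap, while the prolactin receptor Prlr (4.93) and Clic6 (4.34) did. Prlr and Clic6 did not follow Ttr throughout. They were 331 and 419 in sarcosine replicate 4, where Ttr was 90.1. In vehicle replicate 3, a middle library with Ttr at 94.2, they were 260 and 408. The water channel Aqp1 fell by 3.52 on the log2 scale, but was uneven within both sets. It was 142 in sarcosine replicate 1, 162 in memantine replicate 3 and 137 in combination replicate 1. In the other rich libraries it was 3.43 to 13.1. In the poor set it was 246 to 353 in the 5 libraries with Cdhr1 above 2000 and 11.3 to 138 in the rest.

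Genes of dividing cells were higher as well. Mki67 and Top2a, expressed in cycling cells, ranged from 137 to 220.2 and from 142 to 208 in the rich set, and from 17.96 to 82.1 and 5.46 to 88.2 in the poor set. Their differences were 2.73 ± 0.18 and 3.23 ± 0.32, without overlap. Of the 18 genes on the list of migrating neuroblasts and the subventricular zone, 7 were higher and 3 lower (median 0.22), and Dcx, a microtubule protein of migrating neuroblasts, fell by 0.99.

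Cortical excitatory genes were lower in the rich set. Slc17a7, the vesicular glutamate transporter of cortical neurons, ranged from 3901 to 31810 in the rich set (median 17342) and from 27389 to 39911 in the poor set (median 31294). Combination replicate 3 and sarcosine replicate 3 lay inside the poor range and sarcosine replicate 1 far under it. The log2 difference of -0.97 ± 0.35 passed narrowly with limma (adjusted p = 0.0482) and not with edgeR (-0.80, adjusted p = 0.0781) or DESeq2 (-0.80, adjusted p = 0.0839). It was lost on leaving out any of 12 of the 16 libraries (-1.06 to -0.81, adjusted p 0.0586 to 0.128), and was -0.49 without the 4 libraries with Ttr above 1000 (adjusted p = 0.319). Of 24 cortical excitatory genes 12 were lower and 1 higher (median -0.69): Kcnv1 fell by 1.13 ± 0.22 and the somatostatin receptor Sstr3 by 0.89 ± 0.14, while Cnih2, which escorts AMPA receptors, was higher by 0.34 ± 0.06. Tbr1 (-0.45) and Neurod6 (-0.73) did not pass.

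By layer, 10 of 17 genes of the upper cortical layers were lower and 2 higher (median -0.52), and 4 of 23 genes of deep layers, claustrum and subplate were lower and 5 higher (median -0.08). Cux2, a factor of upper layers, ranged from 567.6 to 1475 in the rich set and from 1878 to 2418 in the poor set, with no overlap. Scnn1a, the upper-layer gene with the smallest p, went the other way. It ranged from 69.3 to 186 in the rich set and from 36.7 to 69.8 in the poor set. Whether the layers differ from each other was not tested. Of 30 genes of cortical interneurons 14 were lower and 3 higher (median -0.42): Crh fell by 2.02 ± 0.17 and Npy by 1.00 ± 0.17, both without overlap, and Reln by 1.30 ± 0.17.

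NMDA receptor subunits, whose channel memantine blocks, were partly lower. Of 6 tested subunits 4 were lower: Grin2a by 0.83 ± 0.19, Grin2b by 0.40 ± 0.12, Grin2c by 0.38 ± 0.08 and the obligate subunit Grin1 by 0.31 ± 0.07. The call of Grin2b was lost without sarcosine replicate 2 (-0.36, limma adjusted p = 0.0581). Of 22 immediate early genes, induced by neuronal activity, 7 were lower and none higher (median -0.78), with Nptx2 from 392.4 to 1432 in the rich set against 1537 to 2496 in the poor set and Bdnf lower by 1.20 ± 0.27. Fos (-0.91), Arc (-0.95) and Npas4 (-0.95) did not pass.

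The list with the lowest median was olfactory. Of 27 tested genes of the olfactory bulb and anterior olfactory nucleus 19 were lower and 3 higher, with a median of -1.79. Lbhd2, the highest of the list, differed by 1.93, with overlap between the sets. Cdhr1, a cadherin of mitral and tufted cells, ranged from 114 to 271 in the rich set and from 228 to 3464 in the poor set. Tbx21, a factor of the same cells, ranged from 0.789 to 4.14 against 6.16 to 266, and Ms4a15 from 0 to 4.02 against 9.23 to 679.6. The poor set was itself split: Cdhr1 was 2310 to 3464 in combination replicates 5 and 6, memantine replicates 4 and 5 and sarcosine replicate 5, and 228 to 789.5 in the other 3. Th, the dopamine-making enzyme of periglomerular cells, fell by 4.11 ± 0.38, Omp, the marker protein of olfactory receptor neurons, by 3.95 ± 0.84, and Trh by 3.45 ± 0.32. Omp overlaps the gene Capn5 and Frmd7 overlaps Stk26, so their reads may be shared.

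**Figure D4:**
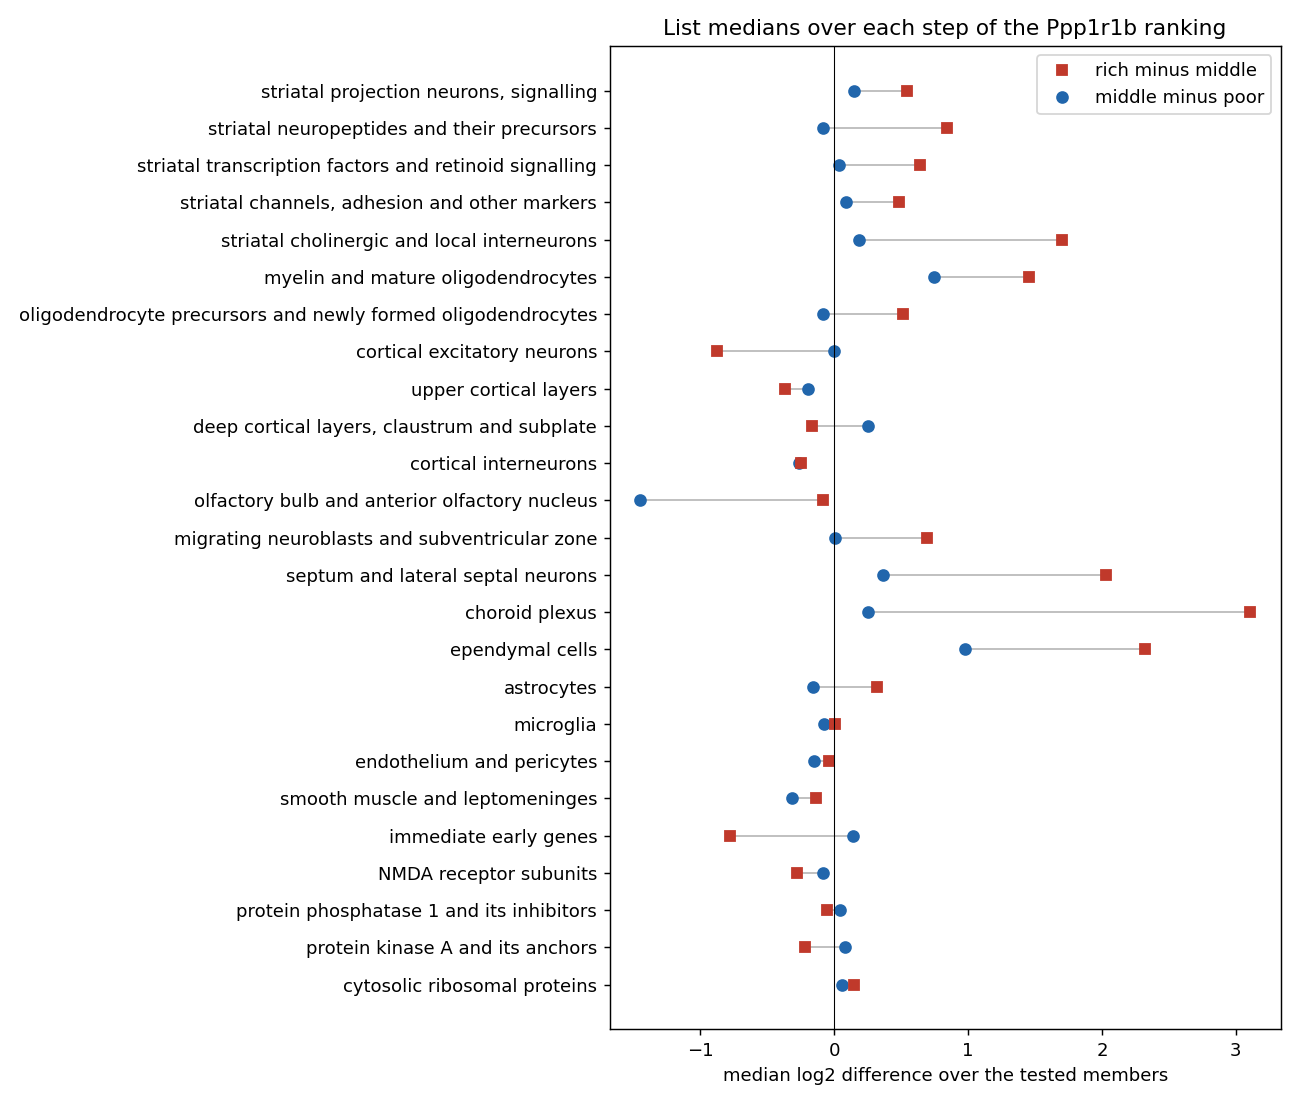
Median log2 difference over the tested members of each gene list from middle to rich libraries (red squares) and from poor to middle libraries (blue circles), each with treatment as a covariate. Septal, choroid plexus, ependymal and cortical excitatory medians lie farther from 0 for rich minus middle, and the olfactory bulb median lies farther from 0 for middle minus poor.

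The lists were also followed over each step of the ranking. From middle to rich the list medians were -0.88 for cortical excitatory genes, 2.03 for septal genes, 2.32 for ependymal genes and -0.09 for olfactory genes. From poor to middle they were -0.0021 for cortical excitatory genes, 0.36 for septal, 0.97 for ependymal and -1.45 for olfactory genes. Under the treatment covariate the 4 vehicle libraries among the middle ones do not inform rich minus middle but do inform middle minus poor, so the steps rest on different libraries and do not add up. As plain mean differences without the covariate, computed after seeing the data, the medians from middle to rich were -0.70 for cortical excitatory, 1.5 for septal, 1.71 for ependymal and -0.13 for olfactory genes. From poor to middle they were -0.0062, 0.42, 1.15 and -1.53. Neither step alone gave a call: limma called 0 genes for rich against middle (5055 at an unadjusted p under 0.05) and 0 for middle against poor (2691). The middle libraries were not uniform, since Ccdc153 was 403 in vehicle replicate 3 and 0 in memantine replicate 6. With log2 Cdhr1 as a covariate limma called 0 genes in either direction (1252 at an unadjusted p under 0.05).

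Lists of cells found throughout the forebrain differed in how many genes passed. They are read beside the 15% of all tested genes called higher and 14.7% called lower. Of 26 astrocyte genes 4 were higher and 1 lower (median 0.03), of 16 microglial genes 1 was higher and 1 lower (median 0.002), and of 18 endothelial and pericyte genes none was higher and 4 were lower (median -0.23). The GABA transporter Slc6a11 of astrocytes fell by 0.84 ± 0.16, and Clu was higher by 0.54 ± 0.09. Of 17 genes of smooth muscle and leptomeninges 1 was higher and 5 were lower (median -0.34), including the transporters Slc22a6 (-1.48 ± 0.32) and Slc6a13 (-1.36 ± 0.30).

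The enzymes that Ppp1r1b protein acts between showed no common direction. Of 14 genes of protein phosphatase 1 and its inhibitors 2 were higher and 4 lower (median -0.06); the catalytic subunits Ppp1cc and Ppp1cb fell by 0.39 ± 0.07 and 0.16 ± 0.05, the second call being lost without any of 8 single libraries (limma, adjusted p 0.0509 to 0.0672), and Ppp1r14a, which is on the myelin list as well, was higher by 1.97 ± 0.26. Of 19 genes of protein kinase A, its cyclases and anchors 4 were higher and 6 lower (median -0.14), with the regulatory subunit Prkar2b higher by 0.33 ± 0.06 and the cyclase Adcy8 lower (-0.95 ± 0.11). Of 35 cytosolic ribosomal protein genes 21 were higher and none lower, by small amounts (median 0.22, highest 0.30). With trends on transcript length and GC content removed, Rpl3 (0.12), Rpl7 (0.07) and Rps19 (0.17) no longer passed (limma, adjusted p = 0.181, 0.336 and 0.0982). Rps6, the member of that list with the smallest p, kept its call.

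**Figure D5:**
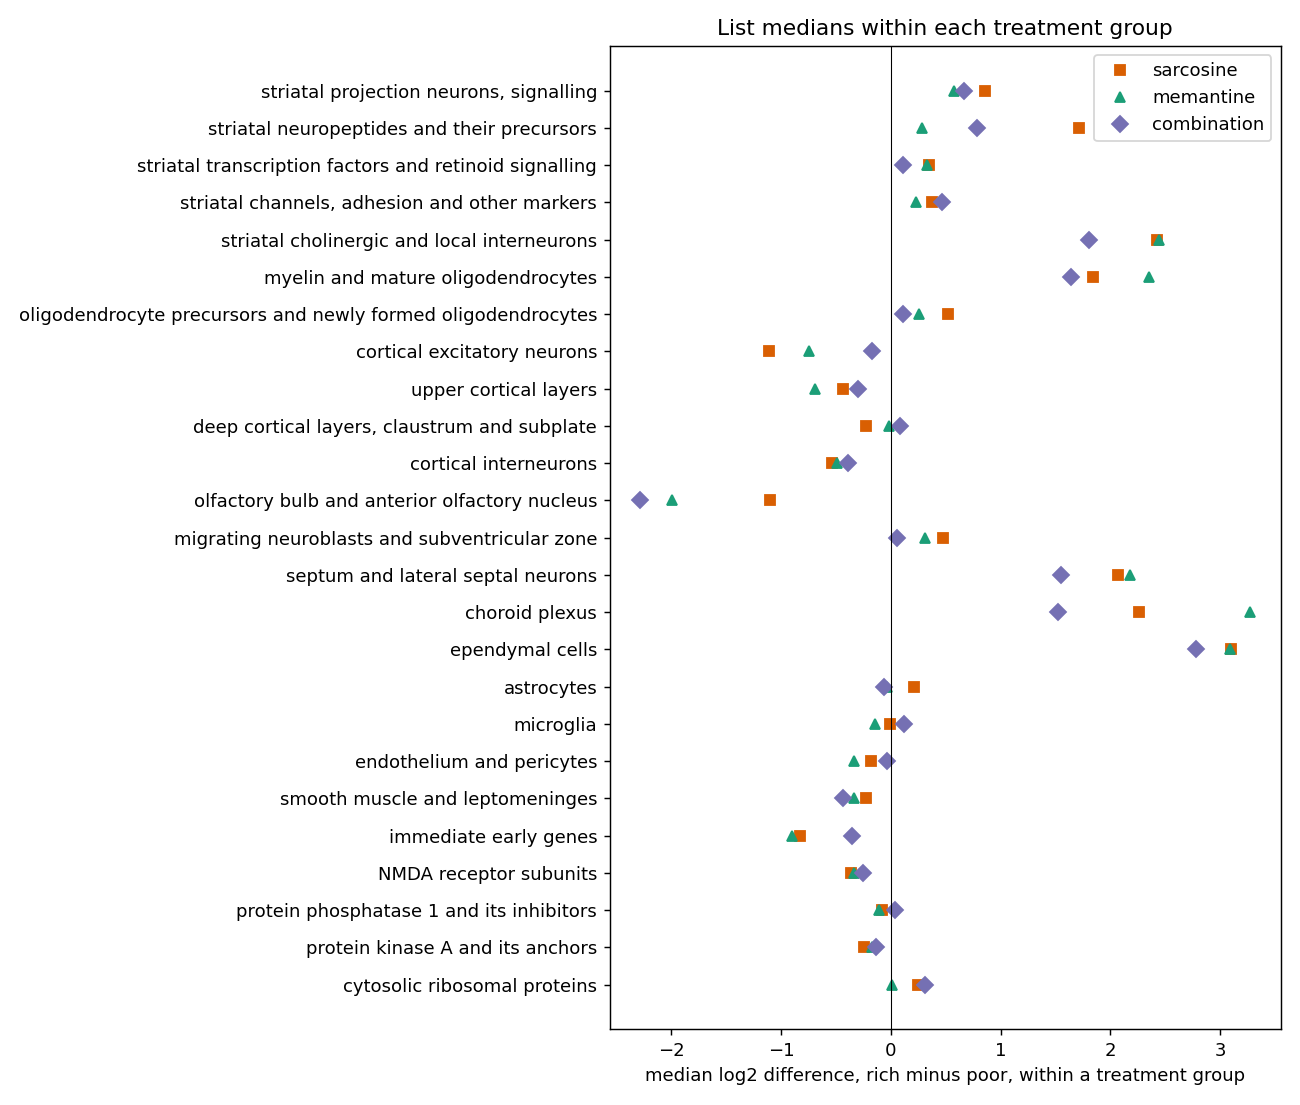
Median log2 difference, rich minus poor, over the tested members of each gene list within the sarcosine, memantine and combination groups. Ependymal medians are 3.10, 3.09 and 2.78, myelin medians 1.84, 2.35 and 1.64, and olfactory bulb medians -1.10, -1.99 and -2.28.

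Within treatment groups the same lists stood out. Rich minus poor, the septal median was 2.07 under sarcosine, 2.18 under memantine and 1.55 under the combination, and Drd2 differed by 4.95, 3.97 and 3.46. Slc17a7 differed by -1.63 under sarcosine, -0.99 under memantine and -0.30 under the combination. These rest on 2 or 3 libraries a side, and differences between treatments were not tested.

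Treatment was not used in the ranking, so the markers can be compared between the study's groups. The mean of Ppp1r1b was 1673 ± 541 in the vehicle group (SD, n = 6) and 2824 ± 2394 under sarcosine. It was 1715 ± 1040 under memantine and 2829 ± 1935 when both drugs were given. None of 12 tests of Ppp1r1b, Drd1, Mbp and Slc17a7 against vehicle passed: the smallest was Drd1 under sarcosine (log2 difference 0.63, exact two-sided permutation p = 0.197, adjusted p = 0.825), where 6 against 6 libraries allow p down to 0.00216. Spread within groups was uneven: the SD of Drd1 was 87.9 in the vehicle group and 410 under sarcosine. A miss does not show that the mix was equal.

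The study's own contrasts were read beside this variation. Over all 24 libraries limma called 1548 genes for sarcosine against vehicle (9.34%), 2 for memantine (0.0121%) and 90 for the combination (0.543%). Of these, 223, 0 and 1 were also called between rich and poor punches, which is 14.4%, 0% and 1.11% of each, against 29.7% of all tested genes called between the sets in either direction. With log2 Ppp1r1b as a covariate the calls numbered 2700, 125 and 731, and every gene called without it was called with it. The share also called between the sets was then 31.6%, 34.4% and 33.1%, near that background of 29.7%. The 3 contrasts share the vehicle libraries.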

How the data were processed

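Bulk RNA-seq of 24 punches was analysed from the authors' deposited table of normalised signal, 1 value per gene and library. Per the submitters' processing notes, FastQC, STAR, featureCounts 1.6.0 and DESeq2 1.42.1 were used on mm39; strand setting, order and filters are not given in the sources used here. Every value was a whole multiple of 1 step per library (100% within 0.01 of a whole read), so reads were recovered by division for edgeR 4.0.16 and DESeq2 1.42.0 alternatives; in memantine replicate 5 the step lies near 1.

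Values were taken as log2(value + 1) and fitted with limma 3.58.1 in R 4.3.3 (trend, two-sided, Benjamini-Hochberg), 8 highest against 8 lowest libraries by Ppp1r1b, treatment as covariate, genes with at least 10 in at least 6 libraries. The 2 vehicle libraries, all in the poor set, do not inform the adjusted difference. Named genes are the 15 highest and 15 lowest differences among called genes with a mean of at least 50, predicted genes left out (67 of 1810 higher and 84 of 2151 lower candidates), up to 4 list members with the smallest p, Drd1, Drd2, Mbp and Slc17a7, and the 10 most like Ppp1r1b; further list members are named as examples, chosen after their values were seen. A few genes that these rules name are not reported here. The sets, lists and rules were chosen with earlier results of these data known. P-values measure spread between these samples, which the labels do not tie to animals beyond their titles. The model was tested on simulated data.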

Additional observations from a re-analysis of the deposited data

Results flagged for a closer look

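In 24 groups of 6 libraries (6 markers in 4 treatment groups), 5 held a library flagged by Dixon's test. The gap of a flagged library to its nearest neighbour was large against the whole range. Chance gives about 1 in 20 groups where values are normally distributed. The test was run on normalised counts without logs, so that rate need not hold here. Drd1 was 1313 in sarcosine replicate 1, with the next sarcosine library at 553. Cdhr1 was 3149 in sarcosine replicate 5, with the next at 789.5. Ttr was 38155 in sarcosine replicate 1 (next 90.1), 52720 in memantine replicate 3 (next 1131) and 33153 in combination replicate 1 (next 45.2). All but the Cdhr1 value belong to libraries of the rich set.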

How the results depend on the processing

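Tissue markers and particular libraries moved the counts most. From 2482 genes higher and 2438 lower, log2 Mbp as a covariate left 50 and 37, log2 Slc17a7 left 1284 and 1155, and log2 Cdhr1 left 0 and 0 (limma, 1252 at an unadjusted p under 0.05). Without the 4 libraries with Ttr above 1000 they were 900 and 755, without the 5 with Cdhr1 above 2000 they were 59 and 1, and without the treatment covariate as well 685 and 307. Rich against middle and middle against poor gave 0 and 0 each (5055 and 2691 at an unadjusted p under 0.05). These settings, the last 5 of which were chosen after seeing the data, partly leave fewer libraries; the cause was not tested. Leaving out each library in turn gave 2049 to 2822 higher and 1860 to 2928 lower. edgeR gave 2429 and 2462, DESeq2 2692 and 2558, and ranking by Drd1, which shares 15 of 16 set members, 2317 and 2185. Removing trends on transcript length and GC content gave 2055 and 3148, a shift of the split towards lower calls, and upper-quartile scaling 2846 and 2011. Treatment calls with log2 Ppp1r1b as covariate were 2700, 125 and 731 for sarcosine, memantine and the combination, against 1548, 2 and 90. With the replicate number as a block 1794 genes were higher and 2090 lower; the numbers do not pair the samples, since same-numbered libraries correlated at 0.05 on average and 18 of 36 such pairs exceeded 0.1. With log2 Mbp as a covariate, log2 differences changed sign for Ttr (-5.64), Bcas1 (-0.22), Enpp6 (-0.34), Neu4 (-0.046), Lamp5 (0.28), Ctss (-0.079), Aldh1a2 (0.16), Bdnf (0.26), Fosl2 (0.46), Grin2a (0.16), Grin1 (0.053), Grin2b (0.29), Ppp1cb (0.034), Slc17a7 (0.96). With log2 Cdhr1 as a covariate, log2 differences changed sign for Ttr (-0.28), Adamts19 (0.70), Frmd7 (0.39), Omp (1.71), Vipr2 (0.65), Tshz1 (1.05), Cux1 (0.054), Nxph4 (0.59), Syt6 (1.16), Reln (0.29), Slc6a11 (0.28), Tmem119 (0.055), Vtn (0.30), Abcb1a (0.056), Itm2a (0.12), Aldh1a2 (0.35), Ppp1cc (0.11). Without the 5 libraries with Cdhr1 above 2000, log2 differences changed sign for Syt6 (0.35), Slc6a11 (0.13). Without those 5 and without the treatment covariate, log2 differences changed sign for Syt6 (0.30), Ppp1cc (0.069). For rich against middle libraries, log2 differences changed sign for Aqp1 (0.41), Cux1 (0.14), Slc6a11 (0.22), Tmem119 (0.00485), Grin2c (0.063), Ppp1cc (0.069). For middle against poor libraries, log2 differences changed sign for Ttr (-1.11), Penk (-0.15), Vim (-0.086), Gja1 (-0.10), Ppp1cb (0.044), Slc17a7 (0.00097). These sign changes cover only the named genes called between the rich and poor sets. None of those that were given an adjusted p changed sign under the other settings run.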
